A study of Rattus norvegicus with 24 samples.

Results

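The genes described here encode translation initiation factors, elongation factors and aminoacyl-tRNA synthetases. They were chosen by symbol: every probe whose platform gene symbol began with Eif or Eef, or was 1 to 3 letters followed by ars, ars1 or ars2. That gave 74 genes of 13229 named on the array, made up of 38 Eif genes, 10 Eef genes and 26 synthetase genes. Of these, 59 genes could be tested, because their probe had a detection score over 0.99 on at least 6 of the 24 arrays. Sars2, detected on 6 arrays, was just inside this limit, and Eif4e3, detected on 4, was just outside it.

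RNA came from cumulus-oocyte complexes, each an oocyte with the granulosa cells that surround it, of 24 sexually mature female Sprague Dawley rats, with 1 bead array per rat. The 4 groups of 6 rats were an untreated control, rats given GnRH, rats given GnRH and then eCG (GnRH+eCG), and rats given GnRH, eCG and then hCG (GnRH+eCG+hCG, called the hCG group below). GnRH is gonadotropin-releasing hormone. Equine chorionic gonadotropin (eCG) makes follicles grow, and human chorionic gonadotropin (hCG) stands in for the surge of luteinizing hormone that starts ovulation. No source used here gives the doses, the times between hormones or the number of complexes per rat.

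Protein synthesis starts when initiation factors load the small ribosomal subunit with the initiator tRNA, bring it to the capped mRNA and move it to the start codon. Elongation factors then deliver charged tRNAs and move the ribosome along, and the synthetases attach each amino acid to its tRNA. The fully grown oocyte makes little new mRNA and is known for controlling the translation of stored mRNA as it matures, while the cumulus cells around it respond to the ovulatory signal by transcribing many genes.

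Levels are log2 normalized signal, as the mean ± SD of 6 rats or as the lowest, median and highest of 6 arrays. A difference is in log2 units, so that 1 is a 2-fold change, and a call is an adjusted p under 0.05 from the limma fit over all 8082 tested probes. Between 25.3% and 37.9% of all probes, and between 50 and 61 of the 75 member probes, were detected per array. On the first principal component of the tested members, which held 51.4% of their variance, the scores of the hCG arrays were 2.08 to 2.99. The arrays of GnRH rats 5 and 16 scored 1.01 and 0.613, apart from the other GnRH arrays at -2.04 to -0.89, so counts that rest on them are also given without them.

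After hCG, the tyrosine, threonine and alanine tRNA synthetase genes Yars1, Tars1 and Aars1 rose, and so did Eef1e1, a scaffold gene of the multi-synthetase complex, and Eif5a, the factor that relieves stalled ribosomes. Yars1 was 2.39-fold higher than with GnRH+eCG, and Tars1 and Eef1e1 were each 1.92-fold higher. Of genes that restrain translation, Eif4ebp1, which keeps the cap-binding protein from its partner, was 1.62-fold lower and Eef2k, the kinase that inactivates elongation factor 2, was 1.6-fold lower, while the cap-binding repressor Eif4e2 rose by 0.48 and Eif4ebp2 did not pass the test. The genes of the core initiation machinery gave smaller differences, or did not pass the test.

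In the hCG group against GnRH+eCG, 16 of the 59 members were higher and 6 were lower. Sars2, among the 16, was tested only because hCG arrays detected it. The count, share and median of the members that include it therefore lend no support to a direction. Across all probes tested, 39.8% were called in that comparison, 17.8% higher and 22% lower. The members' 37.3% was therefore near the background, with 27.1% higher and 10.2% lower. Their median difference was 0.03, beside -0.04 over all probes. Leaving out each of the 24 arrays in turn kept 18 of the 22 calls, and the other 4 belonged to Eif1b, Eif2b1, Sars1 and Iars1. Within rats 1 to 12 alone, with 3 arrays a group, 6 members were higher and 0 lower (12.5% of all probes called), and within rats 13 to 24, 7 were higher and 2 lower (19.4%). Among the genes named above, Tars1 (0.75, adjusted p = 0.14), Eif5a (0.88, adjusted p = 0.0683), Eif4ebp1 (-0.6, adjusted p = 0.135), Eef2k (-0.51, adjusted p = 0.325) and Eif4e2 (0.51, adjusted p = 0.0543) kept their direction within rats 1 to 12 but did not pass there. With median scaling in place of quantile normalization, and without background correction, 8 were higher and 4 lower (27.3%). Median scaling below always means this setting, which changes both steps. For 9 members, all of them higher, the 6 hCG arrays did not overlap the 6 GnRH+eCG arrays, as was so for 1702 of the 8082 probes.

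Against the control, which shares the hCG arrays with the comparison above, 25 members were higher and 10 were lower after hCG. The 25 also include Sars2, so the members' count, share and median lend no support to a direction here either. The background was 51.9% of probes called, 24.4% higher and 27.5% lower, against 59.3% of the members. The median was 0.14 for the members and -0.04 for all probes, and 20 members had groups that did not overlap, as did 2108 probes. Markers moved in this comparison too. All 8 tested oocyte markers were lower (median -1.71), with sums of 2410 to 3774 after hCG and 5908 to 14880 in control, and 4 of 8 cumulus and granulosa markers were lower (13730 to 22960 against 18450 to 33370). Of 7 theca and stroma markers 5 were higher (median 2.03, 5327 to 8404 against 710.1 to 2249), and all 3 leukocyte markers were higher (624.9 to 1721 against 258.2 to 443.7). The leukocyte markers S100a8 and Cd14 and the stroma marker Lum were tested only because hCG arrays detected them. The counts, sums and median of these 2 lists therefore lend no support to a direction. Ptprc, Cd3e, Itgam and Laptm5 were detected on no array. All 3 tested erythrocyte markers were higher (7801 to 11010 against 2573 to 8570), with Alas2 and Slc4a1 detected on no array, the 1 tested endothelial marker was higher, with Cdh5 detected on no array, and 2 of 3 oviduct markers were lower. Their part in these counts was not tested.

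No member passed the test in the other 3 comparisons. For GnRH+eCG against control the background was 0.421% of probes called, 0.26% higher and 0.161% lower. There 10 of the 59 members had an unadjusted p under 0.05, as did 1242 of the 8082 probes. The smallest adjusted p of a member was 0.0592, for Eif2s2. With array weights 3 members passed as higher, when 3.56% of all probes did, and without GnRH rats 5 and 16, 2 members did, when 1.65% of all probes did. For GnRH against control, 0% of probes were called, and the smallest adjusted p of a member was 0.377. Of the 59 members 7 had an unadjusted p under 0.05, as did 961 of the 8082 probes. For GnRH+eCG against GnRH, 0% of probes were called. There 0 members reached an unadjusted p under 0.05, where 431 of the 8082 probes did. Without GnRH rats 5 and 16 that comparison still called 0 members and 0% of probes, with 5 members at an unadjusted p under 0.05 and a smallest adjusted p of 0.494. How many of all probes reached that unadjusted level without these rats is not given here.

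**Figure D1:**
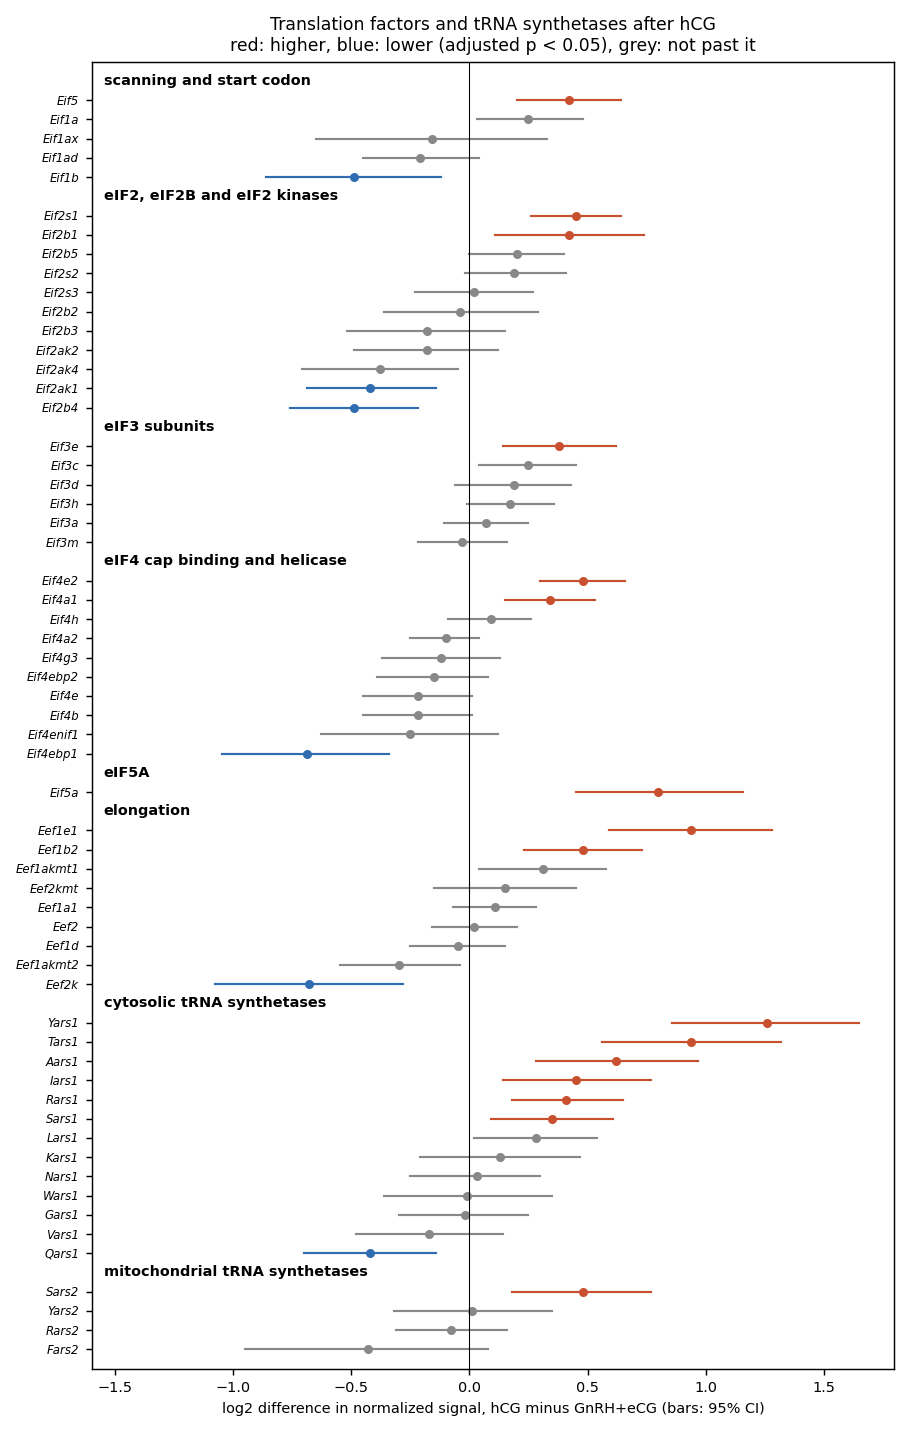
Log2 difference in normalized signal between the hCG group and GnRH+eCG for the 59 tested members, with 95% confidence intervals, sorted within each role. Red points are the 16 members that were higher, blue points the 6 that were lower and grey points the 37 that did not pass the test. The cytosolic synthetases reach from -0.42 (Qars1) to 1.26 (Yars1).

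Markers of the cell types in a complex moved in the same comparison. All 8 tested oocyte markers were lower after hCG, with a median difference of -1.3, and their summed signal was 2410 to 3774 in the hCG group and 4386 to 14940 with GnRH+eCG. Of 8 tested cumulus and granulosa markers 5 were lower, and their summed signal was 13730 to 22960 against 19430 to 31290. Of 3 tested leukocyte markers 2 were higher, S100a8 and Cd14, both tested only because hCG arrays detected them, while the defining markers Ptprc, Cd3e and Itgam were detected on no array. Of 7 tested theca and stroma markers 1 was higher and 1 lower, with sums of 5327 to 8404 against 2702 to 5069. Among them, Star read 8.96, 9.25 and 10.54 with GnRH+eCG and 11.05, 11.44 and 11.55 after hCG (lowest, median and highest). Cyp17a1 went the other way, with 6.49, 9.59 and 10.85 with GnRH+eCG and 6.32, 7.3 and 7.61 after hCG. Lum was tested only because hCG arrays detected it. The part of these shifts in the members' differences was not tested. In whole complexes, fewer or more cells of a type and less or more of the marker's RNA per cell cannot be told apart.

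Genes grouped by symbol with the factors that scan for and recognise the start codon gave 1 rise and 1 fall among 5 tested. That is 20% each, where 17.8% of all probes rose and 22% fell. Eif5 encodes the factor that triggers GTP hydrolysis by eIF2 at the start codon. It read 8.98, 9.16 and 9.51 in control, 9.02, 9.3 and 9.36 with GnRH, 9.24, 9.39 and 9.54 with GnRH+eCG, and 9.6, 9.76 and 10.18 after hCG (lowest, median and highest). Every hCG array was above every array of the other groups, with a difference of 0.42 (SE 0.11, adjusted p = 0.0032) from GnRH+eCG and of 0.63 (SE 0.11, adjusted p = 4.33e-05) from control. The first did not pass with median scaling (0.38, adjusted p = 0.0647) or within rats 1 to 12 (0.28, adjusted p = 0.201).

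Eif1b encodes a close relative of eIF1, which guards start codon choice. It read 10.17, 10.65 and 11.18 in control, 10.15, 10.66 and 11.19 with GnRH+eCG, and 9.79, 10.18 and 10.42 after hCG. The groups overlapped, with 2 hCG arrays under all GnRH+eCG arrays. It was lower by -0.49 (SE 0.18, adjusted p = 0.0333), a call lost without GnRH+eCG rat 7, 8 or 21 or hCG rat 11 or 23 (adjusted p up to 0.0967), with median scaling (-0.35, adjusted p = 0.207) and within either set of rats. Against control it was lower by -0.53 (adjusted p = 0.0165, and 0.0512 without control rat 15).

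The scanning factor gene Eif1a read 11.84, 11.97 and 12.37 with GnRH+eCG and 12.11, 12.31 and 12.38 after hCG. That difference of 0.25 did not pass (adjusted p = 0.0683), while 0.3 against control did (adjusted p = 0.0239, and 0.074 without control rat 14). Its paralog Eif1ax differed by -0.16 (95% interval -0.65 to 0.33), and the related Eif1ad by -0.21 (-0.45 to 0.04).

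The factor eIF2 carries the initiator tRNA, eIF2B recharges it with GTP, and the eIF2 kinases shut this step down under stress. Of 11 tested genes of this group, 2 were higher and 2 lower against GnRH+eCG, and 4 were higher and 3 lower against control. The first is 18.2% each way, near the 17.8% and 22% of all probes. Against control the shares were 36.4% and 27.3%, beside 24.4% and 27.5% of all probes. Eif2s1, the alpha subunit that the kinases phosphorylate, read 9.8, 10.08 and 10.44 in control, 10.05, 10.13 and 10.22 with GnRH, 9.93, 10.19 and 10.34 with GnRH+eCG, and 10.55, 10.62 and 10.68 after hCG. The 6 hCG arrays were the tightest of its 4 groups (SD 0.05) and all above the rest. The difference was 0.45 (SE 0.09, adjusted p = 4.76e-04) from GnRH+eCG and 0.53 (adjusted p = 5.11e-05) from control. Within rats 1 to 12 the first was 0.46 and did not pass (adjusted p = 0.0783).

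Eif2s2, the beta subunit, passed the test against control. It read 10.11, 10.45 and 10.61 in control, 10.5, 10.76 and 11.03 with GnRH, 10.69, 10.78 and 11.14 with GnRH+eCG, and 10.97, 11.04 and 11.15 after hCG. All GnRH+eCG arrays were above all control arrays, with a difference of 0.44 that did not pass (adjusted p = 0.0592). After hCG it was 0.63 above control (SE 0.1, adjusted p = 3.23e-05) and 0.19 above GnRH+eCG (95% interval -0.02 to 0.41, adjusted p = 0.146). The gamma subunit gene Eif2s3 differed by 0.02 from GnRH+eCG (-0.23 to 0.27).

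The subunit genes of eIF2B moved in different directions. Eif2b4, the delta subunit, read 9.06, 9.49 and 9.77 in control, 9.31, 9.43 and 9.57 with GnRH+eCG, and 8.65, 8.89 and 9.46 after hCG. Of the 6 hCG arrays 5 were below all GnRH+eCG arrays, and rat 11 was within their range. It was lower by -0.49 (SE 0.13, adjusted p = 0.00456), and by -0.51 against control (adjusted p = 0.00237). The first did not pass within rats 1 to 12 (-0.57, adjusted p = 0.109) or within rats 13 to 24 (-0.41, adjusted p = 0.0707). Eif2b1, the alpha subunit, read 8.36, 8.58 and 8.83 with GnRH+eCG and 8.63, 9.12 and 9.25 after hCG.

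The rise of Eif2b1 was 0.42 (SE 0.15, adjusted p = 0.0317), but 4 hCG arrays were above all GnRH+eCG arrays and 2 were not. This call was lost without GnRH+eCG rat 7, 9 or 19 or hCG rat 11, 12, 22 or 24 (adjusted p up to 0.0705), with median scaling (0.28, adjusted p = 0.275) and within either set of rats. Against control the rise was 0.42 (adjusted p = 0.0276), also lost without control rat 2 or 3 or hCG rat 11, 12, 22 or 24 (adjusted p up to 0.0876). Eif2b5, the catalytic epsilon subunit, was higher than control by 0.38 (adjusted p = 0.00238), and its difference from GnRH+eCG was 0.2 (adjusted p = 0.11). Eif2b2 and Eif2b3 differed from GnRH+eCG by -0.04 and -0.18 (adjusted p = 0.883 and 0.396).

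Among the kinases that phosphorylate eIF2, Eif2ak1, Eif2ak2 and Eif2ak4 were tested. Eif2ak1, the heme-regulated kinase, read 6.92, 7.34 and 7.63 with GnRH+eCG, where it was detected on 5 arrays, and 6.71, 6.88 and 6.97 after hCG, where it was detected on 0. It was therefore at least 1.34-fold lower than with GnRH+eCG (adjusted p = 0.0154) and at least 1.29-fold lower than in control (adjusted p = 0.0227), the second call being lost without control rat 2 or 15 (adjusted p up to 0.0699). The first did not pass within rats 1 to 12 (adjusted p = 0.156) or within rats 13 to 24 (adjusted p = 0.136). Eif2ak4, the GCN2 kinase that senses uncharged tRNA, was lower than control by -0.52 (adjusted p = 0.00922), with -0.38 against GnRH+eCG (adjusted p = 0.0608). Eif2ak2, the kinase activated by double-stranded RNA, differed by -0.18 (adjusted p = 0.346), and Eif2ak3 was not tested.

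The eIF3 complex is the scaffold that joins the small subunit to the mRNA. Of 6 tested subunit genes, only Eif3e passed against GnRH+eCG, as higher (16.7%, where 17.8% of all probes were higher). It read 9.02, 9.09 and 9.26 in control, 8.92, 9.22 and 9.56 with GnRH+eCG, and 9.46, 9.6 and 9.8 after hCG. All hCG arrays were above control and 4 were above all GnRH+eCG arrays, with differences of 0.49 (adjusted p = 0.00119) and 0.38 (SE 0.12, adjusted p = 0.0125). The second did not pass with median scaling (0.32, adjusted p = 0.0856) or within either set of rats. Eif3c read 11.57, 11.8 and 11.96 in control, 11.82, 11.89 and 12.24 with GnRH+eCG, and 11.95, 12.23 and 12.41 after hCG.

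Eif3c was higher than control by 0.43 (SE 0.1, adjusted p = 0.00109), and its 0.25 against GnRH+eCG was at an adjusted p of 0.0527. That value passed the threshold under several other settings, such as quantile normalization without background correction (adjusted p = 0.0411). Eif3a, Eif3d, Eif3h and Eif3m differed from GnRH+eCG by -0.03 to 0.19 and did not pass in either comparison.

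The eIF4 factors bind the mRNA cap and unwind its leader. Of 10 tested genes, 2 were higher and 1 lower against GnRH+eCG, and 3 were higher and 4 lower against control. The first shares are 20% and 10%, beside 17.8% and 22% of all probes. Against control the shares were 30% and 40%, beside 24.4% and 27.5% of all probes. Eif4e2 encodes a cap-binding relative of eIF4E that does not bind the eIF4G scaffold and is known as a repressor. It read 9.54, 9.8 and 9.97 in control, 9.66, 9.84 and 9.9 with GnRH, 9.69, 9.85 and 10.03 with GnRH+eCG, and 10.24, 10.34 and 10.43 after hCG. All hCG arrays were above every other array, with differences of 0.48 (SE 0.09, adjusted p = 1.71e-04) and 0.56 (adjusted p = 1.58e-05) from GnRH+eCG and control.

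The canonical cap-binding gene Eif4e differed in the other direction, by -0.22 from GnRH+eCG (adjusted p = 0.126) and by -0.36 from control (adjusted p = 0.01). Its inhibitor gene Eif4ebp1 read 9.27, 9.68 and 10.04 in control, 9.68, 9.87 and 9.97 with GnRH, 9.53, 9.66 and 9.97 with GnRH+eCG, and 8.31, 9.13 and 9.69 after hCG. The hCG arrays were spread more widely than the other groups (SD 0.49), and 5 of the 6 were below all GnRH+eCG arrays. It was lower by -0.69 (SE 0.17, adjusted p = 0.00256) and by -0.64 against control (adjusted p = 0.00308). Its paralog Eif4ebp2 differed by -0.15 (95% interval -0.39 to 0.08), and Eif4enif1, which carries eIF4E into the nucleus, was lower than control by -0.55 (adjusted p = 0.0141).

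The helicase paralogs moved in opposite directions against control. Eif4a1 read 11.29, 11.44 and 11.68 in control, 11.38, 11.56 and 11.8 with GnRH+eCG, and 11.77, 11.9 and 12.12 after hCG. It was higher by 0.34 (SE 0.09, adjusted p = 0.00482), with 4 hCG arrays above all GnRH+eCG arrays (but 0.19 within rats 13 to 24, adjusted p = 0.363), and by 0.45 against control (adjusted p = 2.74e-04). Eif4a2 read 12.52, 12.58 and 12.73 in control, 12.34, 12.57 and 12.61 with GnRH+eCG, and 12.31, 12.43 and 12.46 after hCG. It was lower than control by -0.2 (SE 0.07, adjusted p = 0.0224), lost without hCG rat 12 or control rat 14 (adjusted p up to 0.0532), and differed by -0.1 from GnRH+eCG (adjusted p = 0.256).

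The helicase cofactor gene Eif4h was higher than control by 0.25 (adjusted p = 0.0161), a value of 0.18 without hCG rat 11 (adjusted p = 0.0505). The cofactor gene Eif4b and the scaffold gene Eif4g3 did not pass in either comparison, at -0.22 and -0.12 against GnRH+eCG.

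Eif5a encodes a protein known for carrying hypusine, a modified lysine. Its signal was 8.03, 8.5 and 9 in control, 8.22, 8.76 and 9.18 with GnRH, 8.47, 8.71 and 9.26 with GnRH+eCG, and 9.5, 9.65 and 9.73 after hCG. The first 3 groups overlapped widely, and the hCG arrays were above all of them and close together (SD 0.08). Eif5a was 1.75-fold higher than with GnRH+eCG (0.8, SE 0.17, adjusted p = 8.33e-04) and 2.17-fold higher than in control (1.12, adjusted p = 1.61e-05). Dhps, whose enzyme makes hypusine, differed by -0.13 (adjusted p = 0.366), and the paralog Eif5a2 was not tested.

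**Figure D2:**
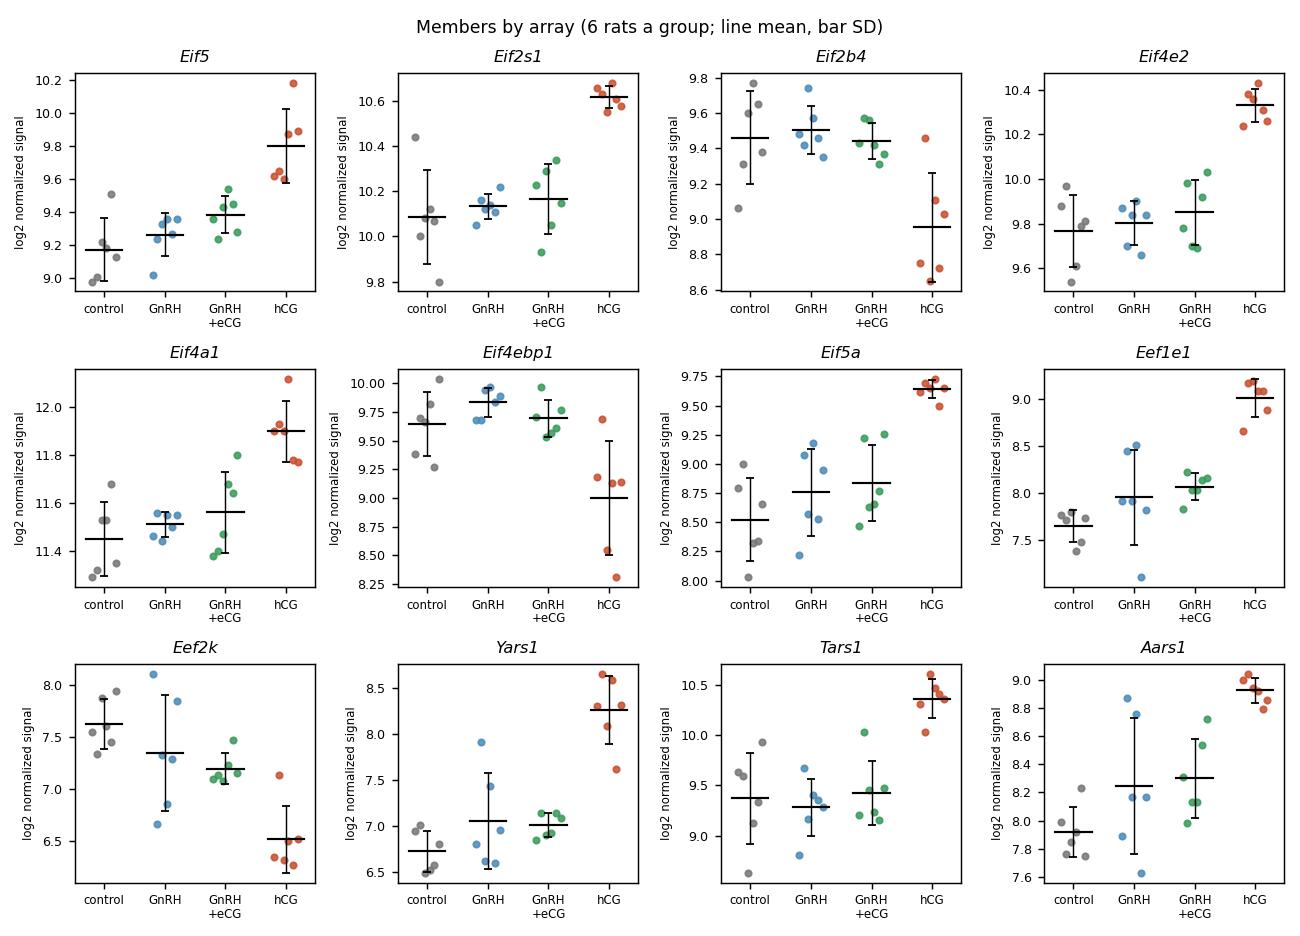
Log2 normalized signal of 12 members on each array, with 6 rats in each of 4 groups, where lines are means and bars SDs. For Eif5, Eif2s1, Eif4e2, Eif5a, Eef1e1, Yars1 and Aars1 the hCG arrays are all above the GnRH+eCG arrays, and for Eif2b4, Eif4ebp1 and Eef2k 1 hCG array, rat 11, is within the GnRH+eCG range.

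Among the 9 tested genes named for elongation, 2 were higher and 1 lower against GnRH+eCG, and 4 were higher and 1 lower against control. The first shares are 22.2% and 11.1%, beside 17.8% and 22% of all probes. Against control the shares were 44.4% and 11.1%, beside 24.4% and 27.5% of all probes. Eef1e1 carries an elongation factor name, but its protein (AIMP3, or p18) is a part of the multi-synthetase complex. It read 7.39, 7.73 and 7.8 in control, 7.11, 7.92 and 8.51 with GnRH, 7.83, 8.08 and 8.23 with GnRH+eCG, and 8.66, 9.08 and 9.19 after hCG. The hCG arrays were above all others, and the GnRH+eCG arrays were all above the control arrays. Its rise was 0.94 from GnRH+eCG (SE 0.17, adjusted p = 1.32e-04) and 1.36 from control (adjusted p = 8.67e-07), or 2.57-fold, while 0.42 between GnRH+eCG and control did not pass (adjusted p = 0.234).

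Eef1b2, a subunit of the exchange factor that recharges eEF1A, read 9.67, 9.97 and 10.22 in control, 9.91, 10.32 and 10.67 with GnRH, 10.09, 10.38 and 10.72 with GnRH+eCG, and 10.66, 10.85 and 11.03 after hCG. Of the 6 hCG arrays 5 were above all GnRH+eCG arrays. It was higher by 0.48 (SE 0.12, adjusted p = 0.00281) and by 0.91 against control (adjusted p = 2.23e-06). Within rats 13 to 24 the first was 0.36 and did not pass (adjusted p = 0.155). Eef1d, another subunit of the same factor, differed by -0.05 (95% interval -0.25 to 0.15).

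Eef1a1, which delivers charged tRNA to the ribosome, read 12.21, 12.24 and 12.33 with GnRH+eCG and 12.2, 12.37 and 12.49 after hCG. Its difference of 0.11 (95% interval -0.07 to 0.28) did not pass, nor did 0.14 against control (adjusted p = 0.166). The identifier of its probe differed between the deposited tables, so it was joined through its 24 signals, and whether the probe also binds transcripts of near-identical copies was not tested.

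Eef2k was the member that fell furthest against control. It read 7.33, 7.57 and 7.94 in control, 6.66, 7.3 and 8.1 with GnRH, 7.07, 7.14 and 7.47 with GnRH+eCG, and 6.27, 6.42 and 7.13 after hCG. It was detected on 6, 4, 4 and 1 arrays of these groups, so its low values lie near the background signal. All hCG arrays were below all control arrays (-1.11, SE 0.19, adjusted p = 6.25e-05), and 5 of 6 were below all GnRH+eCG arrays (-0.68, adjusted p = 0.00774).

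Its substrate gene Eef2 differed by 0.02 from GnRH+eCG (95% interval -0.16 to 0.2) and was 0.22 above control (adjusted p = 0.0366). That call was lost without control rat 1, 13 or 15 or hCG rat 10, 11, 12, 22 or 24 (adjusted p up to 0.079). Eef1akmt1, a lysine methyltransferase of eEF1A, was 0.62 above control (adjusted p = 4.10e-04), with 0.31 above GnRH+eCG (adjusted p = 0.0636). Its relative Eef1akmt2 differed by -0.3 from GnRH+eCG (adjusted p = 0.0623), and Eef2kmt by 0.15 (adjusted p = 0.439).

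Among the cytosolic synthetases, 6 of 13 tested genes were higher and 1 lower against GnRH+eCG (46.2% and 7.69%, beside 17.8% and 22% of all probes). Against control 7 of these genes were higher and 1 lower (53.8% and 7.69%, beside 24.4% and 27.5%). The promoters of several of them share a short sequence, the C/EBP-ATF response element, which is known as a binding site of the stress-response factor ATF4. RefSeq windows of assembly GRCr8, from 250 bases before to 50 after the gene's start, were searched on both strands for TGATGCAA. It was present in 266 of 33469 windows (0.795%) and for 7 of the 65 members with a window (10.8%). The looser form TGATGNAA, which contains it, was in 3.98% of all windows and found the same 7 members. The CACGTG box, a site of MYC-type factors, was in 6.42% of all windows and for 12 of the 65 members (18.5%). The shares of all windows count windows and the members' shares count genes, so they are not the same measure. Here 3 synthetase genes that rose, and Eif2s2, are shown, each in the direction in which the element, in capitals, reads TGATGCAA.
Yars1: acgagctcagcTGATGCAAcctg
Tars1: agctaaccagcTGATGCAAcgggacgccag
Iars1: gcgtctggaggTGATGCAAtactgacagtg
Eif2s2: ttccctttcgcTGATGCAAgagcctagcgc

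The Yars1 stretch is chr5:146820190-146820212 on the plus strand, 39 bases downstream of the gene's start. The other stretches are upstream of the start. That of Tars1 is chr2:62114811-62114840 on the plus strand, with the element beginning, in the gene's direction, 27 bases upstream. That of Iars1 is chr17:15193658-15193687 on the plus strand, 24 bases upstream, and that of Eif2s2 is chr3:163855588-163855617 on the minus strand, 36 bases upstream. The element also occurred at Nars1, whose signal differed by 0.03, and at Cars1, which was not tested. A match describes these letters and is not evidence of binding.

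Yars1 charges tyrosine tRNA. It read 6.49, 6.69 and 7.01 in control, 6.6, 6.87 and 7.91 with GnRH, 6.85, 7 and 7.14 with GnRH+eCG, and 7.62, 8.31 and 8.65 after hCG. The probe was detected on 1, 3, 2 and 6 arrays of these groups, so the lower values lie near the background. Yars1 was higher by 1.26 than with GnRH+eCG (SE 0.19, adjusted p = 2.45e-05) and by 1.54 than in control (adjusted p = 1.03e-06), or 2.91-fold, with no overlap in either comparison.

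Tars1, for threonine, read 8.63, 9.46 and 9.93 in control, 8.81, 9.32 and 9.67 with GnRH, 9.16, 9.34 and 10.03 with GnRH+eCG, and 10.03, 10.38 and 10.61 after hCG. Only GnRH+eCG rat 8 reached the lowest hCG array. The rise was 0.94 (SE 0.18, adjusted p = 3.48e-04) from GnRH+eCG and 0.99 (adjusted p = 1.13e-04) from control. A second Tars1 probe was detected on 1 array and was not tested.

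Aars1, for alanine, read 7.75, 7.88 and 8.23 in control, 7.63, 8.17 and 8.87 with GnRH, 7.98, 8.22 and 8.72 with GnRH+eCG, and 8.79, 8.93 and 9.04 after hCG. No GnRH+eCG array reached the hCG arrays. GnRH rat 5, at 8.87, was within the hCG range, above hCG rats 23 and 24 at 8.79 and 8.86. GnRH rat 16, at 8.76, was just below that range. It was higher by 0.62 (SE 0.17, adjusted p = 0.00518) and by 1.01 against control (adjusted p = 3.71e-05). The first did not pass with median scaling (0.39, adjusted p = 0.0816) or within rats 13 to 24 (0.39, adjusted p = 0.302).

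Rars1, for arginine, read 8.34, 8.49 and 8.77 in control, 8.52, 8.72 and 8.96 with GnRH+eCG, and 8.98, 9.15 and 9.35 after hCG. It was higher by 0.41 (SE 0.11, adjusted p = 0.0059) and by 0.64 against control (adjusted p = 6.81e-05), without overlap in either comparison. The first did not pass with median scaling (0.28, adjusted p = 0.182), within rats 1 to 12 (0.61, adjusted p = 0.0516) or within rats 13 to 24 (0.22, adjusted p = 0.326).

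The isoleucine and serine enzyme genes Iars1 and Sars1 were higher by smaller margins. For Iars1 the difference was 0.45 (adjusted p = 0.0219, and 0.0614 without GnRH+eCG rat 19), and it was 0.62 against control (adjusted p = 0.0018). For Sars1 it was 0.35 (adjusted p = 0.0319), lost without GnRH+eCG rat 7, 8, 19 or 20 or hCG rat 11 or 22 (adjusted p up to 0.0792), and 0.59 against control (adjusted p = 5.03e-04). The leucine enzyme gene Lars1 was higher than control by 0.4 (adjusted p = 0.0104), and its difference from GnRH+eCG was 0.28 (adjusted p = 0.0842).

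Qars1, for glutamine, was the one cytosolic synthetase gene that fell, by 0.42 on the log2 scale against GnRH+eCG (-0.42, adjusted p = 0.0167) and by 0.51 against control (-0.51, adjusted p = 0.00316). The asparagine enzyme gene Nars1 read 10.43, 10.6 and 10.81 with GnRH+eCG and 10.2, 10.63 and 11.02 after hCG, a difference of 0.03 (95% interval -0.25 to 0.3). Vars1 and Gars1, for valine and glycine, differed by -0.17 (-0.48 to 0.14) and -0.02 (-0.3 to 0.25). Kars1 and Wars1 did not pass in either comparison.

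The mitochondrial synthetases were mostly below detection. Of the 4 tested genes, Sars2 was higher against GnRH+eCG, and Sars2 and Yars2 were higher against control. These are 25% and 50% of the genes, where 17.8% and 24.4% of all probes were higher. Sars2 read 6.35, 6.57 and 6.68 in control, where it was detected on 0 arrays, 6.46, 6.62 and 7.2 with GnRH+eCG, where it was detected on 1, and 6.86, 7.17 and 7.5 after hCG, where it was detected on 3. It was at least 1.56-fold higher than in control (adjusted p = 5.63e-04) and differed by 0.48 from GnRH+eCG (SE 0.14, adjusted p = 0.0102), with 4 of the hCG arrays within the GnRH+eCG range. That difference did not pass with median scaling (0.31, adjusted p = 0.105) or within rats 13 to 24 (0.16, adjusted p = 0.608), and without the 3 hCG arrays that detected it Sars2 would not have been tested.

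Yars2, the mitochondrial tyrosine enzyme, read 7.28, 7.71 and 7.78 in control, 7.85, 8.27 and 8.46 with GnRH, 7.87, 7.95 and 8.52 with GnRH+eCG, and 7.44, 8.09 and 8.65 after hCG. All GnRH arrays and all GnRH+eCG arrays were above all control arrays, but neither difference passed (0.63, adjusted p = 0.377, and 0.47, adjusted p = 0.179). It was higher after hCG than in control by 0.49 (adjusted p = 0.0165, and 0.052 without hCG rat 11) and differed by 0.01 from GnRH+eCG (adjusted p = 0.953). Fars2 and Rars2 did not pass in either comparison. The difference between cytosolic and mitochondrial genes was not tested.

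The 15 untested genes were Eif2a, Eif2ak3, Eif3k, Eif4e3, Eif5a2, Eef1a2, Cars1, Hars1, Aars2, Cars2, Lars2, Nars2, Pars2, Tars2 and Vars2. Of these, 10 were detected on no array and 5 on 1 to 4.

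**Figure D3:**
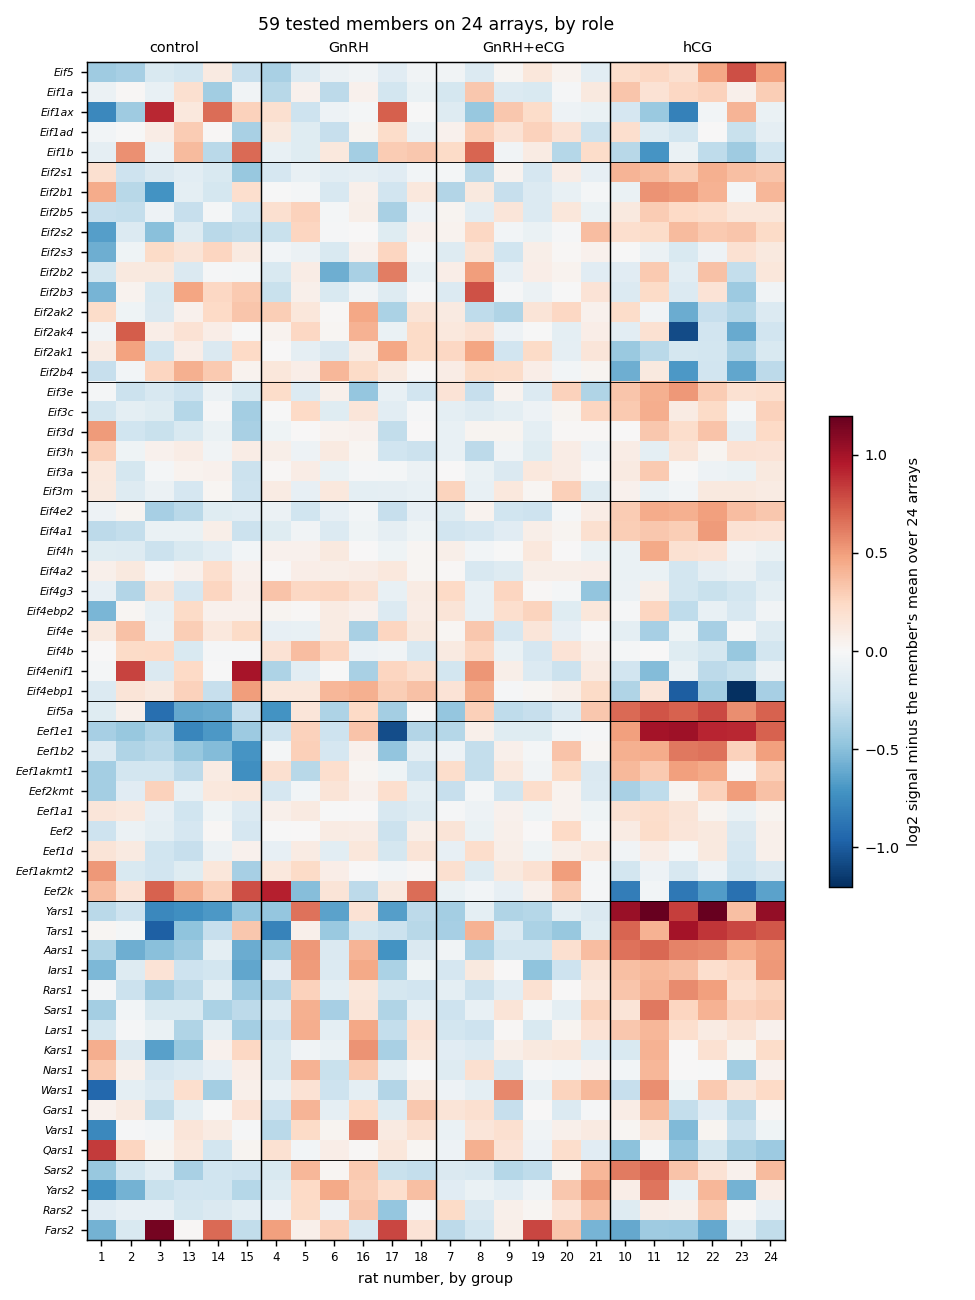
Log2 signal of the 59 tested members on the 24 arrays, each minus the member's mean over all arrays, with rows by role and columns by group and rat number. Red is above and blue below the mean. The hCG columns stand out for the synthetases from Yars1 to Sars1 and for Eif5a, Eef1e1 and Eef1b2, and GnRH rats 5 and 16 are above the other GnRH arrays for Yars1 and Aars1.

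GnRH rats 5 and 16 were high for several of the genes that rose after hCG. Yars1 read 7.91 and 7.43 in them and 6.6 to 6.95 in the other GnRH rats. Eef2k, which fell after hCG, read 6.66 and 6.85 in them and 7.28 to 8.1 in the others. Without both rats, 18 members were higher after hCG than with GnRH+eCG, 6 were lower, and 0 members were called between GnRH and control. Of all probes, 19.3% were then higher and 23.2% lower after hCG than with GnRH+eCG. Against control, 25 members were higher and 10 lower without them, when 25.3% of all probes were higher and 28.2% lower.

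Markers of other cells also set these 2 rats apart. Their summed theca and stroma markers were 8184 and 6106, against 715.6 to 2310 in the other GnRH rats, and their summed cumulus and granulosa markers were 12800 and 11620, against 25820 to 33700. Their oocyte sums were 5643 and 4414, where the others had 6013 to 9565. Among single markers, the collagen gene Col1a2 read 10.68 and 10.61 in them and 6.18 to 8.34 in the others. Cyp17a1, from the same theca and stroma list, went the other way, at 6.28 and 6.25 against 6.65 to 7.14. The aromatase gene Cyp19a1 read 9.1 and 7.68 against 10.99 to 12.15. The part of these marker levels in the members' values in both rats was not tested.

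Genes that work with these factors were read from lists, whose counts below are for the hCG group against GnRH+eCG. Of all probes tested, 17.8% were higher and 22% lower in that comparison. Of the synthetase-complex genes outside the symbol rule, 2 of 3 tested were higher against GnRH+eCG and 0 lower: the scaffold gene Aimp1 by 0.54 (SE 0.15, adjusted p = 0.00745) and the glutamate-proline synthetase gene Eprs1 by 0.35 (SE 0.1, adjusted p = 0.0091). The median of the list was 0.35. Farsb, a phenylalanine synthetase subunit gene, differed by 0.15 (adjusted p = 0.498).

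In the integrated stress response, the pathway that starts with the eIF2 kinases, 5 of 8 tested genes were higher and 0 lower. Of these 8, Asns was tested only because the hCG arrays detected it, so its difference is a description and the count and the median over the 8 (0.94) lend no support to a direction. Asns, the asparagine synthetase gene that ATF4 induces, read 6.23, 6.32 and 7.07 with GnRH+eCG and 7.56, 8.07 and 8.83 after hCG. It was detected on 0 control, 2 GnRH, 1 GnRH+eCG and 6 hCG arrays, so its lower values lie near the background, with a difference of 1.64 (SE 0.24, adjusted p = 1.43e-05). Cebpb, a transcription factor known in the ovulatory response, rose by 1.98 (SE 0.31, adjusted p = 3.49e-05), and Ppp1r15b, a phosphatase subunit that reverses eIF2 phosphorylation, by 0.67 (SE 0.12, adjusted p = 1.87e-04).

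Atf4 and Ppp1r15a were also higher, by 1.39 (adjusted p = 2.46e-04) and 1.2 (adjusted p = 0.0026), and are named because their values were seen. Atf4 read 9.19, 9.73 and 10 with GnRH+eCG and 10.84, 11.01 and 11.43 after hCG, without overlap. Atf5 and Ddit3 did not pass against GnRH+eCG, at 0.23 and 0.14, nor did Shmt2 at 0.44. Trib3, Chac1 and Sesn2, also known as targets of ATF4, were detected on no array.

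In the mTORC1 and S6 kinase list, 1 of 10 tested genes was higher and 3 were lower, with a median of 0. Tsc1 and Akt1, which did not pass, were tested only because hCG arrays detected them, so the median lends no support to a direction. Pdcd4, an inhibitor of eIF4A, fell from 8.63, 8.94 and 9.3 with GnRH+eCG to 7.14, 7.79 and 8.27 after hCG (-1.23, SE 0.19, adjusted p = 2.80e-05). Mknk2, a kinase of eIF4E, fell by 0.93 (-0.93, SE 0.13, adjusted p = 6.48e-06), and the groups of both genes did not overlap. The S6 kinase gene Rps6kb2 rose by 0.65 (adjusted p = 0.00192). Mtor itself, named because its values were seen, was lower by -0.61 (adjusted p = 0.0161).

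Of 6 tested genes for poly(A) binding and termination, 3 were higher and 0 lower, with a median of 0.33. The release factor gene Etf1 read 10.05, 10.28 and 10.49 with GnRH+eCG and 10.76, 10.97 and 11.08 after hCG, a rise of 0.65 without overlap (SE 0.09, adjusted p = 1.34e-05). Gspt1, its partner, rose by 0.49 (adjusted p = 0.0312), and Pabpc4, a poly(A)-binding protein gene, by 0.37 (adjusted p = 0.0164). Of 4 tested mitochondrial translation factor genes, and of 2 tested genes for making hypusine and diphthamide, 0 passed, with medians of 0.06 and 0.01.

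Genes that control stored mRNA in the oocyte gave 1 higher and 2 lower of 5 tested, with a median of -0.48. Cpeb1, which binds stored mRNA, was lower by -1.06 (SE 0.29, adjusted p = 0.00593) and the oocyte gene Zar1 by -1.36 (SE 0.3, adjusted p = 0.00113), in the same arrays in which all 8 tested oocyte markers were lower. Cpeb4 was higher by 0.37 (adjusted p = 0.00574).

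**Figure D4:**
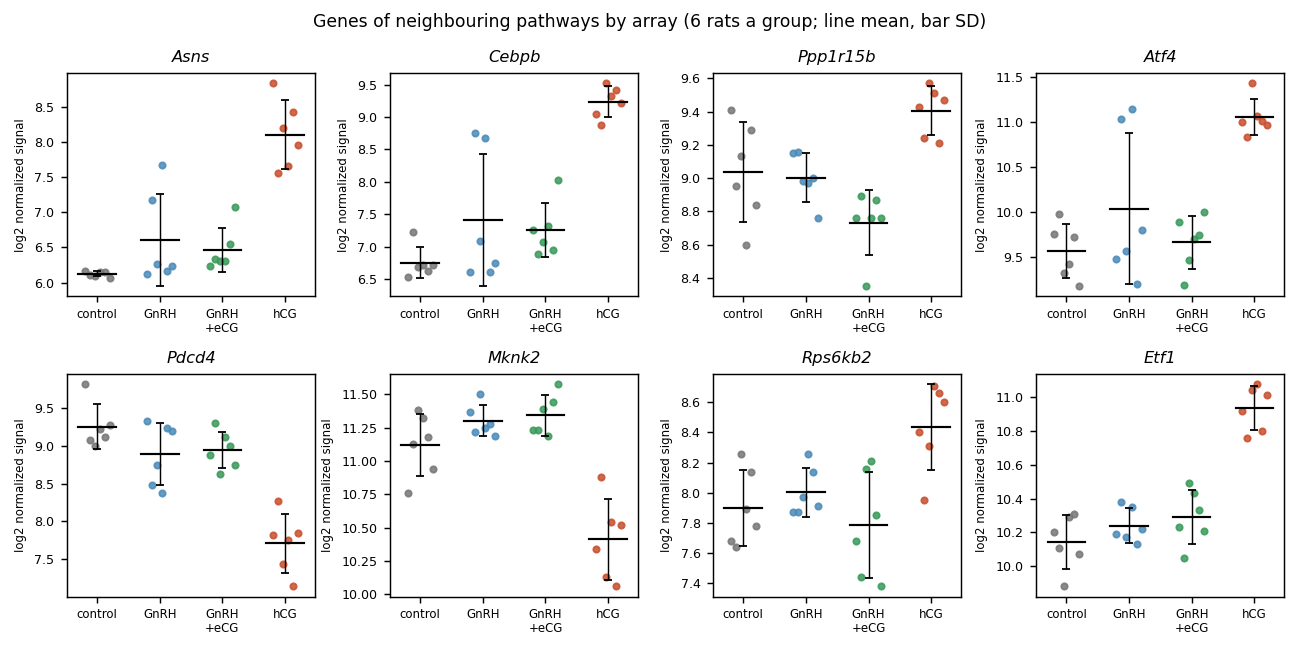
Log2 normalized signal of 8 genes of neighbouring pathways on each array, with 6 rats in each of 4 groups, where lines are means and bars SDs. The hCG arrays are all above the GnRH+eCG arrays for Asns, Cebpb, Ppp1r15b, Atf4 and Etf1 and all below them for Pdcd4 and Mknk2, and 2 GnRH arrays, rats 5 and 16, are high for Atf4, Asns and Cebpb.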

How the data were processed

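The deposited intensity values are on a linear scale, 1 per probe and array, from BeadStudio per the submitters' processing notes (no version given). The arrays kept different medians, so they were taken as not yet normalized. The authors' detection fraction, from 0 to 1, rose with signal and was read as 1 minus the detection p. Of 22226 probes, 21946 had the same identifier in both deposited tables, and 280 were joined on their signals, within 0.5 signal units. The platform annotation, which can be old, named 1 gene for 13599 probes and none for 8627. Gene identifiers of 13559 probes matched RefSeq.

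The neqc function of limma 3.58.1 (offset 16, R 4.3.3) corrected the background and quantile normalized the arrays. Probes with a detection score over 0.99 on at least 6 arrays were tested, 8082 probes or 36.4%. A linear model of the 4 group means took in all 24 arrays (lmFit, eBayes), with Benjamini-Hochberg adjustment over the 8082 probes in each of 5 comparisons. Arrays are from separate rats, and their number limits the precision. Where no array of a group detected a probe, its fold is a bound (at least N-fold): the other group's mean over the mean of, on each undetected array, whichever was larger, its own signal or the dimmest detected one. The fit was tested on simulated data.

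Members named with values by array are, in each role, up to 4 past the threshold after hCG against GnRH+eCG, by adjusted p, and the one with the highest mean signal. From each list came up to 3 genes past the threshold, by adjusted p. The members and lists were chosen with earlier results of these data known. Alternatives covered normalization, offset, filter, variance model, array weights, threshold, rats 1 to 12 against rats 13 to 24 as a block or apart, and leaving out arrays. The authors' matrix values gave the signals, so a separate run on them was the same as quantile normalization without background correction. Every member had 1 tested probe, so averaging probes changed nothing. All 24 sample columns were used. Of the 7 member windows that hold TGATGCAA, 1 is not reported here.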

Additional observations from a re-analysis of the deposited data

Results flagged for a closer look

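Among 26 members named with their values by array, each of the 4 groups of 6 was checked for an array far from the others, which chance gives for about 1 group in 20, and 3 of 104 groups had one. Eif5 read 9.02 in GnRH rat 4, where the other GnRH arrays read 9.24 to 9.36. Eef2k read 7.13 in hCG rat 11, above the next hCG array at 6.52. Without that array its difference from GnRH+eCG was -0.8 (adjusted p = 0.00192). Tars1 read 10.03 in GnRH+eCG rat 8, above the next at 9.47, and its rise without that array was 1.06 (adjusted p = 9.83e-05).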

How the results depend on the processing

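Members were higher or lower, against GnRH+eCG, in 8 and 4 cases with median scaling, beside 10.5% and 16.8% of all probes tested. At an adjusted p under 0.01 the counts were 11 and 3 (12% and 13.4% of all probes). With array weights, where hCG rat 24 weighed 13.4, the counts were 23 and 12 (25.6% and 31.7%). Within rats 1 to 12 the counts were 6 and 0 (6.84% and 5.69%), and within rats 13 to 24, 7 and 2 (9.37% and 9.99%). Against control these counts were 19 and 5 at an adjusted p under 0.01 (18.5% and 19.8% of all probes). They were 15 and 0 within rats 1 to 12 (10.6% and 9.01%). Within rats 13 to 24 they were 13 and 5, when 38.1% of all probes were called in either direction and 20.6% were lower. The sets of rats hold 3 arrays a group, so fewer samples enter each fit; the cause of the other shifts was not tested. For GnRH+eCG against control, 3 members were higher with array weights (3.56% of all probes). With detection on all 6 arrays of a group 1 was higher (0.442%), and with trend and robust 1 was (0.297%). Without GnRH rats 5 and 16, 2 were higher (1.65%). With array weights without hCG rat 24, a setting chosen after seeing the data, 2 were higher (3.3%).

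Leaving out each array gave 13 to 18 higher and 5 to 7 lower against GnRH+eCG, 21 to 26 and 9 to 11 against control, and 0 to 1 higher between GnRH+eCG and control. With all arrays, 17.8% and 22% of all probes were higher and lower against GnRH+eCG, and 24.4% and 27.5% against control. Between GnRH+eCG and control 0.26% were higher. The shares in the fits without an array are not given here, so these ranges have no background of their own. The set block gave 16 and 6 against GnRH+eCG, when 18.3% of all probes were higher and 21.9% lower. No paired analysis was possible because no rat number occurs in more than 1 group. Yars1 and Eef1e1 passed in every setting run. Signals near background limit Yars1, Sars2, Eef2k and Eif2ak1. Sars2 was tested only because hCG arrays detected it, so counts of higher members that include it lend no support to a direction.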

Other observations

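Of the 6 members lower after hCG, 4 (Eef2k, Eif4ebp1, Eif2b4 and Qars1) had exactly 1 hCG array within the GnRH+eCG range, and in each it was rat 11. Of the 16 members higher after hCG, rat 11 was within the range for 1, Tars1, and rat 23 for 5. This was noticed in the values and was not tested.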
